A study of Mus musculus with 6 samples.

Results

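The expressed pseudogenes of these lymphomas were the genes that the deposited annotation calls pseudogene and whose mean over the 6 tumors was at least 10 RPKM. RPKM is the number of reads scaled by gene length and library size. The rule found 169 pseudogenes among 5135 of that annotation, of which 2651 had 0 in every tumor, and among 38293 genes in all. The genes were thus chosen by their mean RPKM, and their levels are given as a description. Another 487 genes carry the annotation processed_pseudogene and lie outside the rule, 34 of them with a mean of at least 10 RPKM. Just inside the limit were Rpl31-ps16 (10.4 RPKM), Gm12966 (10.3 RPKM) and Dynlt1-ps1 (10.1 RPKM), and just outside it were Gm12537 (9.998 RPKM), Gm8213 (9.995 RPKM) and Gm14277 (9.98 RPKM).

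All 6 tumors came from C57BL6 mice carrying the Eμ-Myc transgene, in which an immunoglobulin heavy chain enhancer drives Myc in B lineage cells. The miR-146a-deficient (-/-) tumors, D1 and D2, were 2 thymic tumors of females aged 11 and 10 weeks. The miR-146a-sufficient (+/+) tumors were from 4 males: S1 and S2 were neck node tumors at 18 and 16 weeks, and S3 and S4 were thymic tumors at 10 weeks. Genotype and sex therefore cannot be told apart, nor can site and age among the sufficient tumors. Each tumor was a separate mouse and was sequenced in 2 runs that the deposited values combine, so every n below counts mice. RNA came from suspensions of tumor cells, where fewer cells of a type and less RNA per cell cannot be told apart.

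A processed pseudogene arises when the messenger RNA of a parent gene is copied back into DNA and inserted elsewhere in the genome. The copy has no introns and usually no promoter of its own, and genes with very abundant messenger RNA, such as those for ribosomal proteins, have left the most copies. A young copy is nearly the same sequence as its parent, so a short read can match both. An annotated pseudogene can therefore receive reads of its parent, of other copies, or of a transcript of its own.

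Most of these genes were of that kind. Of 167 that could be located in the mouse genome (GRCm38), 154 are now annotated as processed, 8 as transcribed processed, 4 as unprocessed and 1 as transcribed unprocessed pseudogenes. The 2 others, Gm5601 and Gm15453, had no match and no parent was sought. A best protein-coding match, called the parent here, was found for all 167, in 136 different genes. It need not be the gene that was copied. For 8 pseudogenes another gene matched almost as well, and the parents Rps12-ps3 and mt-Co2 were listed at 0 in every tumor. The identity to the parent had a median of 99.3%, with 103 pseudogenes at 99% or more, 35 at 100% and a lowest value of 79.0% (Znf41-ps against Zfp600, a zinc finger gene). Of the 167, 158 had a single exon. They lay on 19 chromosomes, 69 of them within or overlapping another gene and 12 overlapping an exon of one. Counting was not stated to use strand, so reads from a gene on the opposite strand cannot be told apart from theirs. Because 22 parents had 2 or 3 copies each among the set (53 pseudogenes), the 169 values are not independent of one another.

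The sequences show how little separated copy and parent. Each pair below is 30 bases of the pseudogene and the matching 30 bases of the parent's coding sequence, with the bases that differ in capitals. They are chosen for the results that follow: Gm15459 passed the genotype test, Rps6-ps4 had the highest RPKM, Gm5913 moved against its parent, and Gm12411 had 0 in 1 tumor. The windows are on GRCm38 and come from GENCODE transcripts: chr5:5783428-5783457 on the minus strand for Gm15459, chr2:75191793-75191822 on the minus strand for Rps6-ps4, chr8:97428064-97428093 on the minus strand for Gm5913, and chr4:45550095-45550124 on the plus strand for Gm12411.
Gm15459: gggtaaccgcaccacAccaagctatgttgc
Hspa8: gggtaaccgcaccacGccaagctatgttgc
Rps6-ps4: atgaagctgaacatctccttccccgccacc
Rps6: atgaagctgaacatctccttccccgccacc
Gm5913: ctcttcaCtggAaacctgccacatgaAgtt
G3bp1: ctcttcaTtggGaacctgccacatgaGgtt
Gm12411: ttggccacatacatgTgaatctacaagaag
Rpl21: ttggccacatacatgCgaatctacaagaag

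Rps6-ps4 did not differ from Rps6, the gene of a small-subunit ribosomal protein, at any of the 750 bases aligned, and Gm12411 differed from Rpl21, the gene of a large-subunit ribosomal protein, at 4 of 483. Gm15459 differed from Hspa8 at 5 of 1941 bases and Gm5913 from G3bp1 at 27 of 1399, with 1 gap. The 5 substitutions of Gm15459 were G114A, C414T, C549T, G1222A and C1440T, where the base of Hspa8 stands first, the position is counted from 1 at the first base of its start codon, and the base of Gm15459 stands last. The G114A change is the capital letter in the pair of sequences given for these genes.

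The near identity showed in the RPKM itself. An RPKM is a whole number of reads divided by a length. A multiple of both gives the same RPKM, so the smallest length with whole reads in all 6 tumors was taken. It was found for 147 of the 169 pseudogenes. This length ranged over 1 to 1366 bases with a median of 114 bases, whereas the exons had a median of 483 bases (126 to 2958 bases). It was at most 100 bases in 62 pseudogenes and at most 10 bases in 23. Among 145 pseudogenes with windows counted, the length followed the number of 100-base windows (the read length) found in no other annotated transcript, with a Spearman rho of 0.84, and exon length less closely, with a rho of 0.45. For the 30 of these that were 100% identical to a parent, the median length was 7 bases (1 to 568), against 212.5 bases for the 8 under 95% identity. The length was within 10% of the number of such windows in only 36 of the 145 pseudogenes, so it was not simply that number. These correlations are across genes, which are not independent, and are given as descriptions.

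**Figure D1:**
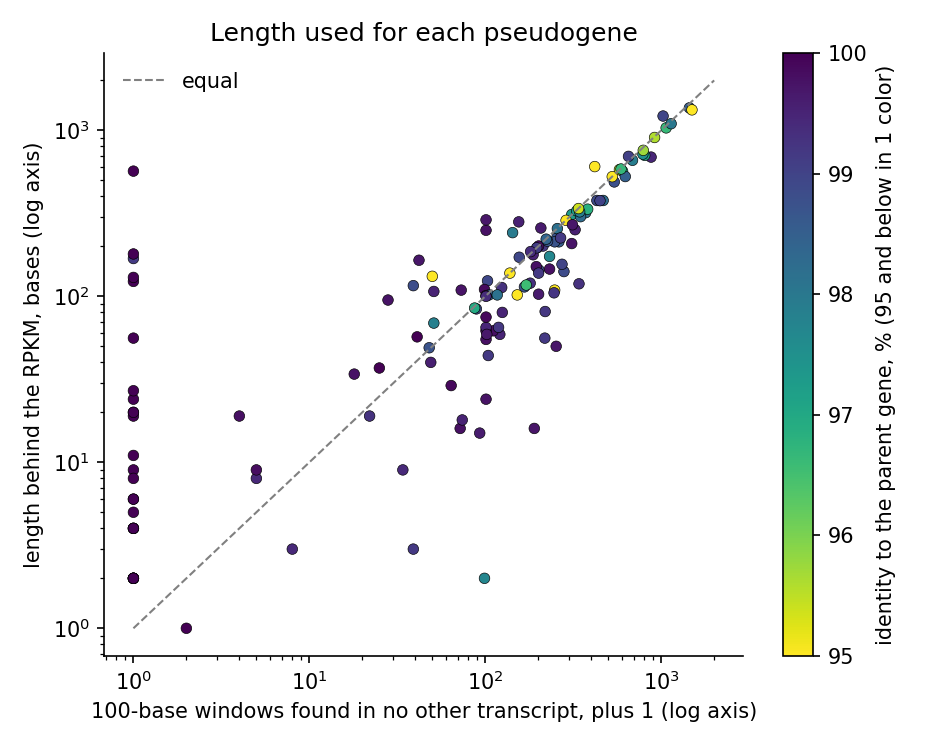
Length behind the RPKM of each pseudogene (vertical log axis, bases) against the number of 100-base windows found in no other transcript, plus 1 (horizontal log axis). Each point is 1 of the 145 pseudogenes with both values, coloured by its identity to the parent (95% and below in 1 colour), and the dashed line marks equal values. The length rose with the number of such windows (rho 0.84) and reached down to 1 base.

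A short length turns few reads into a high RPKM. The reads recovered for a pseudogene summed over the 6 tumors to between 9 and 7361, with a median of 1023. At least 100 reads were found in every tumor for 66 of the 147 pseudogenes, and at least 10 in every tumor for 130. For 17 pseudogenes at least 1 tumor had fewer than 10 reads, for 4 every tumor did, and 5 had a tumor with 0. The libraries held about 59200000 and 41200000 reads in the deficient tumors D1 and D2, and about 25600000, 69700000, 29800000 and 28200000 reads in the sufficient tumors S1 to S4, as estimated from the same read steps. A value of 1 read was thus worth more RPKM in S1 than in S2.

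The ranking by RPKM and the ranking by reads differed. The 10 pseudogenes with the highest mean RPKM were Rps6-ps4, Gm15500 (a copy of Rpl5), Rpl28-ps1, Rpl10a-ps1, Gm14303 (Rps29), Rps16-ps2, Rpl38-ps2, Gm10443 (Rps28), Rpl34-ps1 and Gm8203 (H2afz, a histone variant). All but Gm8203 are copies of ribosomal protein genes. Reads were recovered for 6 of the 10, and 3 of these 6 were also among the 10 with the most reads. Rps6-ps4 had 13987 and 10610 RPKM in the deficient tumors, against 14811, 13647, 21756 and 18277 RPKM in the sufficient tumors. Its length was 2 bases and its reads were 1616 and 878 in the deficient tumors, against 732, 1859, 1268 and 1008 in the sufficient tumors. Its parent Rps6 stood at 982 and 750 RPKM in the deficient tumors, against 1062, 906, 1501 and 1303 RPKM in the sufficient tumors, below the copy in every tumor. The groups overlapped in both genes. The mean RPKM of 41 pseudogenes was above that of the parent gene. These include pseudogenes whose parent stood near 0, such as the copy of Eno1b (0.25 to 0.72 RPKM). Gm15459 was second by reads (6895) and only number 28 by mean RPKM (207), and Gm6548, a copy of the translation elongation factor gene Eef1a1 and chosen after its values were seen, was number 9 by reads (4572) and number 117 by RPKM (17.7, length 1035 bases).

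**Figure D2:**
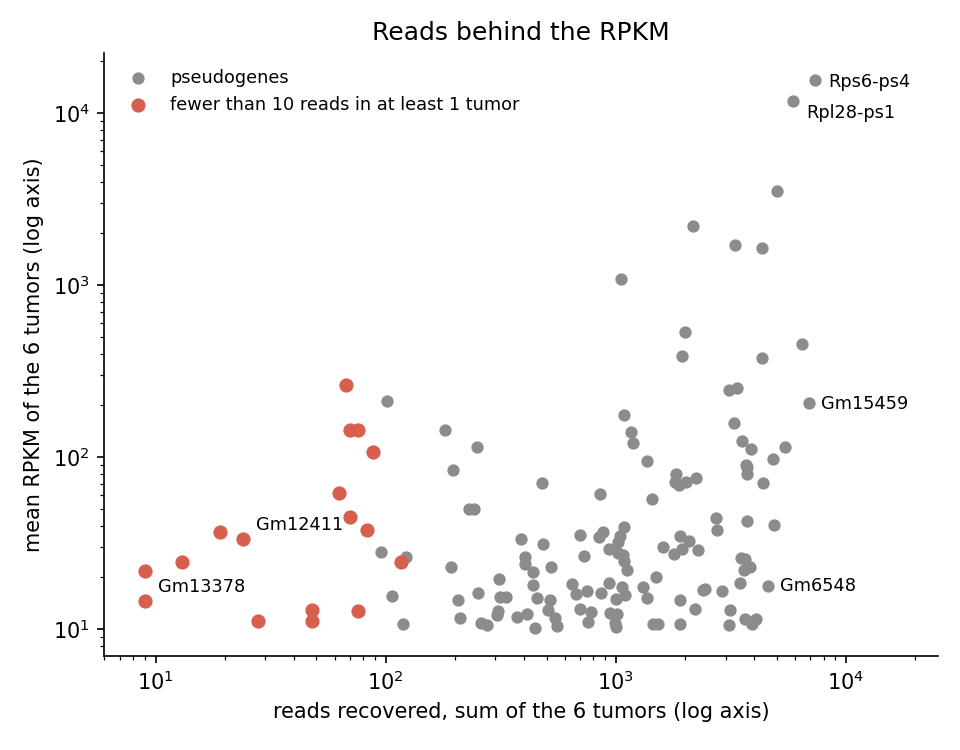
Mean RPKM of the 6 tumors (vertical log axis) against the reads recovered over the 6 tumors (horizontal log axis) for the 147 pseudogenes with recovered reads. Coloured points are the 17 pseudogenes with fewer than 10 reads in at least 1 tumor. Rps6-ps4 stands highest, at 15514 RPKM on average from 7361 reads, and the fewest reads behind any pseudogene were 9.

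For genotype, 1 of the 169 pseudogenes passed the test and was higher in the deficient tumors, and none was lower. Across all 12751 genes tested, limma on log2(RPKM + 1) with Benjamini-Hochberg adjustment over all of them called 0.0549% higher and 0.00784% lower, 0.0627% in all. That pseudogene was Gm15459 (ENSMUSG00000083840), a single-exon copy of Hspa8 at chr5:5781615-5783555 on the minus strand. Hspa8 encodes the constitutive Hsc70 chaperone, which folds new proteins and takes part in clathrin uncoating and chaperone-mediated autophagy. The copy is 99.7% identical over 1941 bases.

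Gm15459 had 699.7 and 440.0 RPKM in the deficient tumors, against 32.4, 20.5, 30.3 and 19.6 RPKM in the sufficient tumors. Both deficient tumors stood far above all 4 sufficient ones, at a mean of 569.8 ± 184 RPKM (SD, n = 2) against 25.7 ± 6.57 RPKM (SD, n = 4), a ratio of 22.2. The log2 fold change was 4.41 (SE 0.29, adjusted p = 0.00141, limma). The exact two-sided permutation test gave p = 0.133, the smallest that 2 tumors against 4 can reach. The reads behind these values were 4513 and 1980 in the deficient tumors, against 90, 155, 97 and 60 in the sufficient tumors, over a length of 109 bases. Of its 1842 windows of 100 bases, 72 were found in no other transcript.

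The parent went the other way. Hspa8 had 421.1 and 270.8 RPKM in the deficient tumors, against 804.0, 460.7, 542.4 and 521.1 RPKM in the sufficient tumors, so both deficient tumors were below all 4 sufficient ones. Its log2 fold change of -0.75 (SE 0.31, unadjusted p = 0.039, adjusted p = 0.893, limma) did not pass the test. The log2 ratio of Gm15459 to Hspa8, each with 1 added to its RPKM, was 0.73 and 0.70 in the deficient tumors, against -4.59, -4.42, -4.12 and -4.66 in the sufficient tumors. The difference of 5.16 had an exact two-sided permutation p of 0.133, again the smallest possible.

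**Figure D3:**
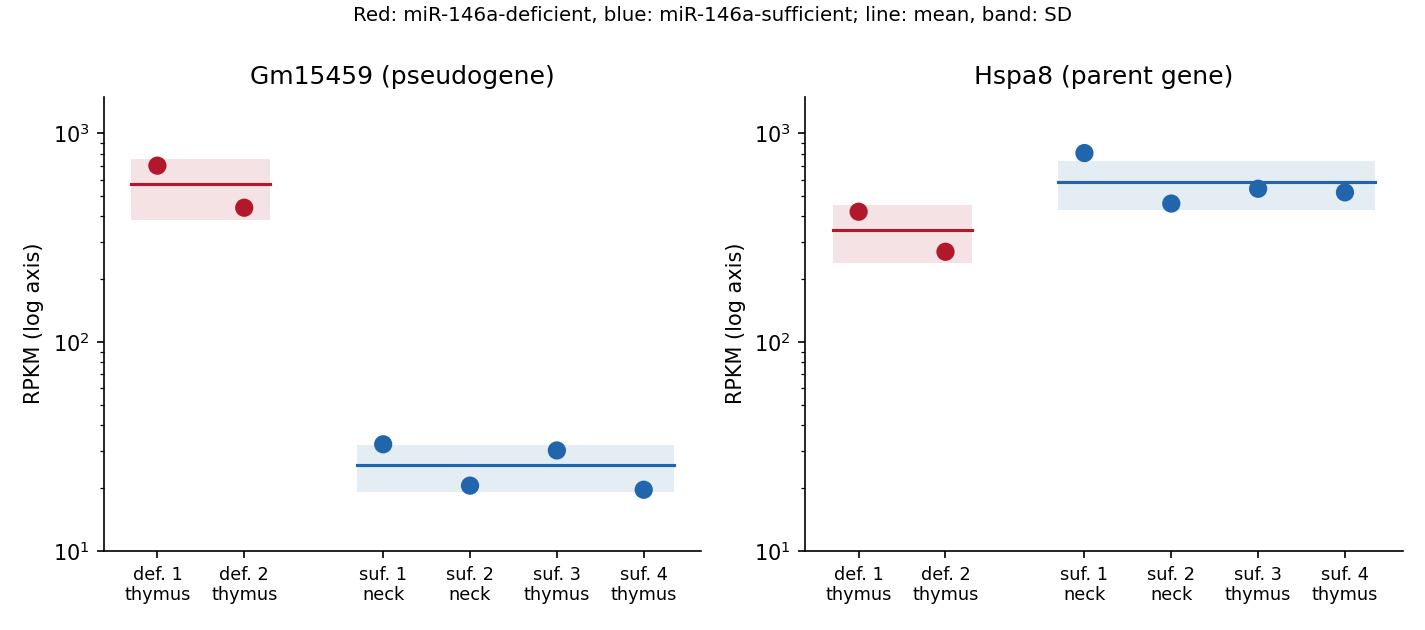
RPKM (log axis) of Gm15459 and of its parent Hspa8 in each tumor, with the miR-146a-deficient tumors in red left of the miR-146a-sufficient tumors in blue. The line is the group mean and the band the SD. Gm15459 stood at 699.7 and 440.0 RPKM in the deficient tumors and at 32.4 or less in the sufficient tumors, and Hspa8 was lower in both deficient tumors than in any sufficient one.

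The lincRNA Gm26825 overlaps Gm15459 on the opposite strand and is listed at 0 in all 6 tumors. The file also lists at 0 the mitochondrial gene mt-Co2, which cells with mitochondria use and which is the parent of Gm13341, so a 0 there does not show that Gm26825 was without reads. The neighbours compared were genes that were tested, and untested genes can lie nearer. On 1 side the GTP-binding protein gene Gtpbp10 lies 222077 bases away. It had 5.39 and 5.90 RPKM in the deficient tumors, against 2.91, 7.15, 5.20 and 5.86 RPKM in the sufficient tumors, with a log2 fold change of 0.13. On the other side Tubb4b-ps1 lies 1395810 bases away, with a log2 fold change of -0.05. Both neighbours overlapped between the groups and neither passed the test. The Mir146 gene is on chromosome 11 and Gm15459 on chromosome 5. The pseudogenes nearest to Mir146 were Gm12141, a copy of the chaperonin gene Hspd1 at 1873939 bases with a log2 fold change of 0.22, and Gm12161, a copy of Tyw1 at 1906133 bases with 0.16, and neither passed the test.

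At an unadjusted limma p below 0.05 there were 9 of 169 pseudogenes (5.33%), 3 higher and 6 lower in the deficient tumors, against 3.62% of all genes tested. The groups did not overlap in 4 pseudogenes that were higher and 10 that were lower in the deficient tumors, whereas across all genes 9.15% were higher and 2.09% lower without overlap. The 4 higher ones were Gm15459, Gm5913, Gm13092 (a copy of the spliceosome gene Snrpf) and Gm7862 (a copy of Hmgn1, which encodes a nucleosome-binding protein). Of the 10 lower ones, 9 were copies of ribosomal protein genes.

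Gm5913 is a copy of G3bp1, whose protein assembles stress granules. It had 19.2 and 14.8 RPKM in the deficient tumors, against 9.49, 7.20, 4.98 and 7.45 RPKM in the sufficient tumors, and the groups did not overlap. Its log2 fold change was 1.14 (SE 0.27, unadjusted p = 0.00276, adjusted p = 0.818, limma), from 162 to 1249 reads a tumor over a length of 1097 bases. G3bp1 itself stood at 68.9 and 60.5 RPKM in the deficient tumors, against 99.8, 93.6, 71.8 and 83.4 RPKM in the sufficient tumors. The parent's log2 fold change of -0.42 did not pass the test. Gm5913 entered the set through the deficient tumors, with a mean of 17.0 RPKM there and 7.28 RPKM in the sufficient tumors. Another 3 pseudogenes also had a sufficient mean under 10 RPKM, and 15 had a deficient mean under 10 RPKM, so for these the choice of genes and the genotype difference are not separate.

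Gm11427 lies beyond the rule for named genes and was picked after its values were seen. It overlaps an exon of AI662270 on the same strand and resembles Slfn4, a gene of the Schlafen family, at 92.0% identity. It had 10.8 and 21.4 RPKM in the deficient tumors, against 4.66, 12.1, 6.19 and 9.45 RPKM in the sufficient tumors. The groups overlapped through D1 and S2. The log2 fold change was 0.91 (unadjusted p = 0.0475, adjusted p = 0.893, limma) and did not pass the test. Gm11427 entered the set through the deficient tumors, with a mean of 16.1 RPKM there and 8.10 RPKM in the sufficient tumors. Its choice and its genotype difference are therefore not separate.

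Among the pseudogenes lower in the deficient tumors, Gm12411 had the largest fitted difference, on few reads. It entered the set through the sufficient tumors, with a mean of 47.4 RPKM there and 5.68 RPKM in the deficient tumors. Its choice and its genotype difference are therefore not separate. This copy of Rpl21 had 11.4 and 0 RPKM in the deficient tumors, against 23.5, 51.0, 67.6 and 47.7 RPKM in the sufficient tumors. These values came from 2 and 0 reads in the deficient tumors, against 2, 10, 6 and 4 reads in the sufficient tumors, over a length of 3 bases. The 0 reads of D2 allow up to 3.69 reads by an exact Poisson 95% interval, which covers counting error only. The log2 fold change of -3.69 (SE 0.85, adjusted p = 0.793, limma) depends on the added constant and did not pass the test. Without D1 it reached -5.51 with an adjusted p of 0.0232, where the single deficient tumor left was assumed to vary like the others.

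The other lower ones with an unadjusted p below 0.05 moved by less than 1 on the log2 scale, apart from Gm14567. This copy of the RNA polymerase subunit gene Polr2k, outside the rule for named genes and picked after its values were seen, had 4 to 18 reads a tumor and a log2 fold change of -1.51. Gm14036, a copy of the large-subunit ribosomal protein gene Rpl29, lies within an intron of Plcb1 on the same strand and had 7.0 and 7.03 RPKM in the deficient tumors, against 14.1, 11.0, 12.9 and 13.1 RPKM in the sufficient tumors. The fitted change was -0.78 on the log2 scale (SE 0.21), against -0.13 for Rpl29. Gm9294, a copy of the small-subunit gene Rps4x, had 20.4 and 15.5 RPKM in the deficient tumors, against 32.0, 26.4, 28.4 and 32.6 RPKM in the sufficient tumors. The fitted change was -0.71 on the log2 scale (SE 0.21) on 358 to 1029 reads a tumor, against -0.45 for Rps4x. In both genes the groups were apart, and neither passed after adjustment (adjusted p = 0.893 each, limma). Gm12618, another copy of Rpl21, and Rps15a-ps6 had log2 fold changes of -0.66 and -0.65 with the same adjusted p. Gm14036 and Gm12618 had deficient means under 10 RPKM (7.01 and 8.48), against sufficient means of 12.8 and 14.1 RPKM. For both, the choice of the gene and the genotype difference are not separate.

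The pseudogenes fell into groups by the role of the parent, and the largest was the ribosomal one. Ribosomal protein genes encode the structural proteins of both ribosomal subunits and are among the most strongly transcribed genes of growing cells. Of the 76 ribosomal pseudogenes 69 had a negative and 7 a positive log2 fold change for genotype, with a median of -0.36. No gene of this group passed the adjusted test, and 5 were lower and 0 higher at an unadjusted limma p below 0.05. At that level stood 3.62% of all genes tested, both directions together. The parents of the ribosomal pseudogenes had a median of -0.36 as well. Over all 169 pseudogenes the median was -0.19, with 121 negative and 48 positive, against a median of 0.13 over all genes tested and 0.12 over the 5101 protein-coding genes with a mean of at least 10 RPKM. The share with a negative value was 71.6% of the pseudogenes and 32.4% of all genes tested.

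The ribosomal values leaned on single tumors. Of the 76 ribosomal pseudogenes 61 were highest in the sufficient tumor S3 and 55 were lowest in the deficient tumor D2. Relative to each gene's mean over the 6 tumors, on the log2(RPKM + 1) scale, the ribosomal pseudogenes had medians of 0.01 in D1 and -0.52 in D2, against 0.00 in S1, -0.12 in S2, 0.58 in S3 and 0.09 in S4. The ribosomal parents had 0.02 and -0.46 in D1 and D2, against 0.01, -0.19, 0.60 and 0.13 in S1 to S4. The remaining pseudogenes had medians of 0.07 and -0.10 in D1 and D2, against -0.03, -0.14, -0.02 and 0.14 in S1 to S4. D1 thus stood close to S1 and S4 in the ribosomal group, while D2 lay about as far below these as S3 lay above them. Without D2 the ribosomal median was -0.11 with 54 of 76 negative, without D1 it was -0.65, and without S3 it was -0.21 with 62 negative. Among the thymic tumors alone it was -0.56.

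**Figure D4:**
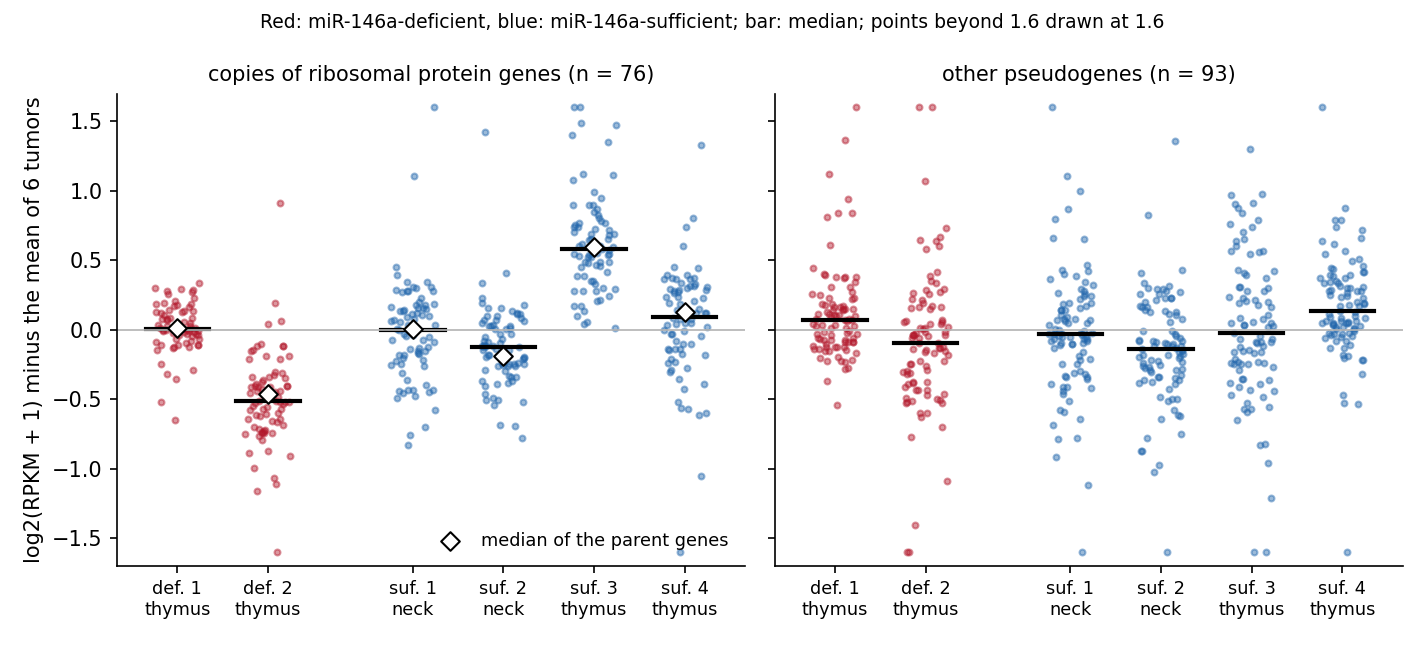
Log2(RPKM + 1) of each gene minus its mean over the 6 tumors, by tumor, with the miR-146a-deficient tumors in red left of the miR-146a-sufficient tumors in blue. The panels hold the 76 ribosomal and the other pseudogenes, 1 point a gene with a bar at the median and points beyond 1.6 drawn at 1.6, and white diamonds mark the median of the ribosomal parents. Ribosomal pseudogenes and parents alike were lowest in D2 (median -0.52 for the pseudogenes) and highest in S3 (0.58).

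Over all 169 pseudogenes 82 (48.5%) were highest in S3 and 82 (48.5%) were lowest in D2. Among the 5519 genes with a mean of at least 10 RPKM, 11.5% were highest in S3 and 16.8% lowest in D2. Scaling the tumors by median ratios, with a factor of 0.83 for S3, raised the pseudogenes highest in S3 to 110 and the share of all such genes to 29.3%. Of the 49 ribosomal parents, which include Rps12-ps3 at 0 in every tumor, 43 were highest in S3.

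The smaller groups were centred nearer 0. The 9 copies of genes for protein folding and turnover held Gm15459 and otherwise ranged down to -0.66, with a group median of -0.05. The 8 copies of translation factor genes had a median of -0.12, the 7 copies of chromatin and nuclear genes -0.11, the 5 copies of mitochondrial energy genes -0.12 and the 3 copies of cytoskeletal genes -0.02. The 4 copies of the glycolysis genes Gapdh and Eno1b had a median of 0.04. The 55 pseudogenes with other parents had a median of 0.00, with 27 positive and 28 negative. In these groups, Gm15459 apart, no pseudogene passed the adjusted test, and 2 were higher and 1 was lower at an unadjusted limma p below 0.05.

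Parents could be set beside 163 pseudogenes, since 132 of the 136 parent genes passed the filter of at least 0.5 RPKM in at least 2 tumors. Of the 132 parents 0 passed the genotype test by limma and 2 had an unadjusted p below 0.05, Hspa8 and Pin4, a peptidyl-prolyl isomerase gene. Their median log2 fold change was -0.17, with 36 positive and 96 negative. In 139 of 163 pairs pseudogene and parent had the same sign. Across these genes, which share tumors and much of their sequence, the Pearson r was 0.39 with Gm15459 and 0.61 without it, and the Spearman rho was 0.72. Only 5 pairs differed by more than 1 on the log2 scale: Gm15459 and Hspa8 (5.16), Gm12411 and Rpl21 (-3.14), Gm5913 and G3bp1 (1.56), Gm20691 and Gga3 (1.35), and Gm20689 and Rab8b (1.27). In 3 of these the pseudogene had no more than 11 reads in any tumor.

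**Figure D5:**
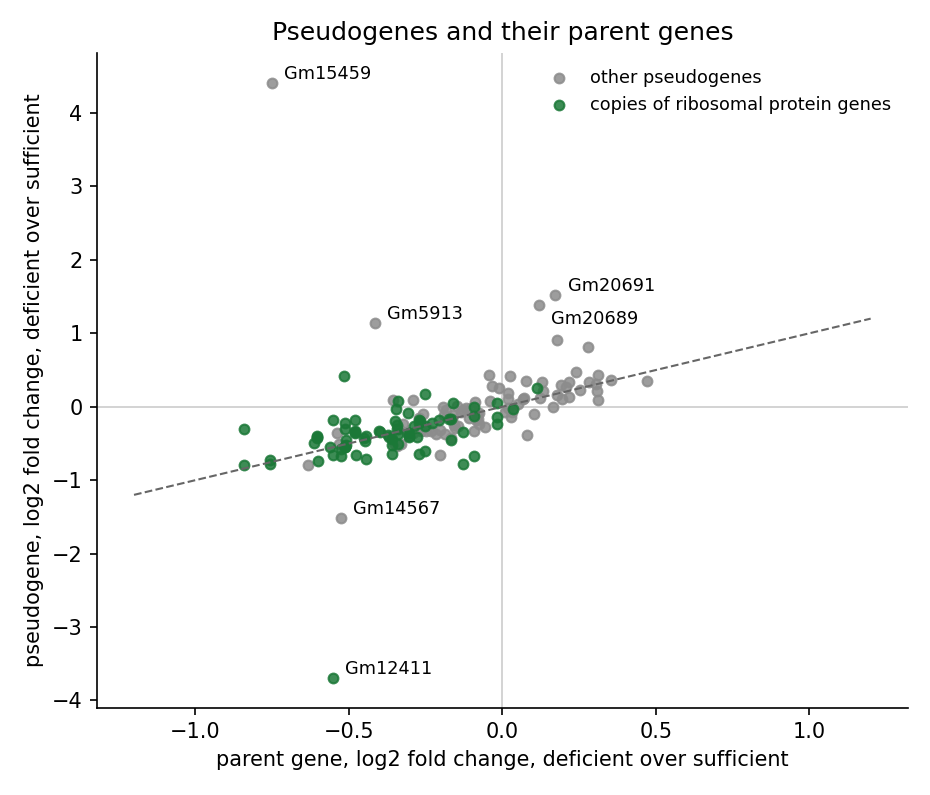
Log2 fold change for genotype, deficient over sufficient, of each pseudogene (vertical axis) against that of its parent gene (horizontal axis), for 163 pairs, with copies of ribosomal protein genes in green and a dashed line at equal values. Gm15459 lies far above the others at 4.41 against -0.75 for Hspa8, and 139 of the pairs have the same sign.

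Tumors of 1 group also differed from each other. Among the sufficient tumors the ratio of the highest to the lowest value had a median of 1.86 over the pseudogenes and 1.62 over all genes with a mean of at least 10 RPKM. Between the deficient tumors it was 1.34 over the pseudogenes and 1.25 over those genes, and 110 pseudogenes were within 1.5-fold. A ratio of at least 3, or a value of 0, was found among the sufficient tumors in 21 pseudogenes (12.4%) and in 5.85% of the genes. A single tumor stood apart from the nearest other by at least 3-fold in 6 pseudogenes (3.55%), against 1.74% of the genes.

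In 5 of these 6 the tumor that stood apart had 0 reads and the others few. Besides Gm12411, with its 0 in D2, these were Gm20689 (0 in S3, up to 4 reads elsewhere), Gm13378 (0 in S3, up to 3), Rpl30-ps9 (0 in S4, up to 3) and Gm20691 (0 in S1, up to 11). Gm13378 is a copy of Phf3, a PHD finger gene, and Rpl30-ps9 of the ribosomal protein gene Rpl30. At such counts a difference between tumors was not detectable. The sixth, Znf41-ps, was well covered: it had 17.4 and 1.81 RPKM in the deficient tumors, against 11.2, 9.66, 12.6 and 11.6 RPKM in the sufficient tumors. D2 was thus 5.33-fold below the lowest of the other 5 tumors, with 39 reads against 152 to 541 in the others, over a length of 526 bases. Its groups overlapped and its log2 fold change of -0.77 (SE 0.61) turned to 0.59 without D2. Gm12013, a copy of Rpl39 and picked after its values were seen, was 2.88-fold higher in S3 than in any other tumor, just short of the limit of 3.

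Gm20689 and Gm20691 lie together with Gm18588 within 1 intron of Ift80, a gene of intraflagellar transport in cilia, inside 3982 bases at chr3:68900171-68904152 on the strand of Ift80. They are copies of different genes: Gm20689 of Rab8b, a small GTPase gene, Gm20691 of Gga3, a gene for a clathrin adaptor, and Gm18588 of Osbpl9, a gene for a lipid transfer protein. Gm18588 was the steadiest of them, with 58.7 and 37.5 RPKM in the deficient tumors, against 47.4, 44.2, 50.8 and 59.6 RPKM in the sufficient tumors, on 22 to 64 reads a tumor. Ift80 had 2.01 and 1.97 RPKM in the deficient tumors, against 2.38, 1.81, 1.15 and 2.44 RPKM in the sufficient tumors. The groups overlapped in both.

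Site was compared among the 4 sufficient tumors, neck node over thymus. None of the 169 pseudogenes passed the adjusted test by limma, against 0.155% of 12255 genes, and 23 had an unadjusted p below 0.05. All 23 were lower in the neck node tumors, where 2.65% of all genes were lower and 5.21% higher at that level. The median log2 difference was -0.26 for the pseudogenes and 0.10 for all genes, and 131 pseudogenes were negative. Leaving out 1 tumor sets a single tumor against a pair, so that the spread comes from the pair alone and the lone tumor is assumed to vary like it. Without S3 the count was then 6 lower and 2 higher. Without S2 it was 11 lower and 3 higher, without S4 44 and 6, and without S1 20 and 2. Among the 23 the largest difference was that of Rpl22-ps1, a copy of Rpl22 outside the rule for named genes and picked after its values were seen. It had 22.2 and 17.5 RPKM in the neck node tumors, against 58.2 and 51.0 RPKM in the sufficient thymic tumors (log2 difference -1.42, SE 0.25, adjusted p = 0.20, limma). The parent Rpl22 moved the same way, with 371 and 277 RPKM in the neck node tumors, against 859 and 627 RPKM in the sufficient thymic tumors. Its log2 difference was -1.19 (SE 0.32, adjusted p = 0.555, limma).

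Some markers of other cells moved with site among the sufficient tumors. These were the neutrophil and salivary gland markers and the stromal sum, the last lower in both neck node tumors. The stromal sum was held mostly by Pecam1, with 9.51 and 10.2 RPKM in the neck node tumors, against 13.8 and 22.2 RPKM in the sufficient thymic tumors. The collagen genes Col1a1 and Col3a1 overlapped between the sites. The macrophage, T and NK cell and erythroid sums overlapped between the sites. The summed neutrophil markers (S100a8, S100a9, Ngp and Ltf) were at 1485 and 1520 RPKM in the neck node tumors, against 220.2 and 191.9 RPKM in the sufficient thymic tumors. D1 and D2 had 100.3 and 253.0 RPKM. The salivary gland genes Bpifa2 and Smr3a summed to 56.0 and 53.4 RPKM in the neck node tumors, against at most 0.19 RPKM in any thymic tumor. Their part in the site difference was not tested. Of the B cell markers, Cd79a, a part of the B cell receptor, had 532.4 and 388.1 RPKM in the deficient tumors, against 389.8 to 550.4 RPKM in the sufficient tumors, and the transcription factor gene Pax5 had 34.2 and 24.1 RPKM in the deficient tumors, against 22.6 to 37.8 RPKM in the sufficient tumors. Both were present in every tumor. The macrophage markers (4 genes) summed to 196.5 and 225.8 RPKM in the deficient tumors, against 119.4 to 290.1 RPKM in the sufficient tumors, a sum held mostly by Lyz2. Lyz2 itself had 139.3 and 149.4 RPKM in the deficient tumors, against 93.3 to 270.9 RPKM in the sufficient tumors. Csf1r had 3.95 and 5.26 RPKM in the deficient tumors, against 1.64 to 5.41 RPKM in the sufficient tumors. The groups overlapped in Lyz2 and Csf1r, with log2 fold changes of -0.07 and 0.46. The remaining genes of the list, the complement genes C1qa and C1qb, differed from that sum. C1qa had 22.9 and 27.7 RPKM in the deficient tumors, against 4.92, 4.71, 9.25 and 15.1 RPKM in the sufficient tumors, and C1qb had 30.4 and 43.4 RPKM in the deficient tumors, against 8.87, 7.46, 15.2 and 27.4 RPKM in the sufficient tumors. The groups did not overlap in either, with log2 fold changes of 1.6 and 1.42 that did not pass after adjustment (adjusted p = 0.893 each, limma), and their part in the genotype differences was not tested. In the same order of groups, the T and NK cell markers (4) summed to 5.78 and 3.72, against 4.23 to 31.8 RPKM, the erythroid markers (3) to 10.8 and 36.3, against 13.7 to 148.9 RPKM, and the stromal markers (3) to 19.1 and 29.6, against 11.9 to 28.7 RPKM.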

How the data were processed

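Tumor cell suspensions were frozen in Trizol and sequenced as 100-base single reads. Per the labels and the study's methods, the authors aligned the reads with STAR 2.3.0 to the mouse genome (GRCm38), counted them per gene with HTSeq 0.5.4p3 and deposited RPKM values, 1 column per tumor. Reads and lengths were recovered from the RPKM values by taking the smallest length that gave whole reads in all 6 tumors (147 of 169 pseudogenes). No count test was used.

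Genes with at least 0.5 RPKM in at least 2 tumors were tested with limma 3.58.1 (R 4.3.3, variance trend) on log2(RPKM + 1), which understates changes of low genes, with Benjamini-Hochberg adjustment over all genes tested (12751 for genotype, 12255 for site) and a threshold of 0.05. Parents were the best match by blastn 2.17.0 among GENCODE M21 protein-coding transcripts (at least 70% identity over at least 50% of the pseudogene). Named genes were those past the threshold, the 10 highest by mean RPKM, the 12 with the largest change among those whose groups did not overlap, those standing apart in 1 tumor by 3-fold, the 3 on each side of the limit, their parents and the cell type markers. The members and lists were chosen with earlier results of these data known. The fits were tested on simulated data. One further marker is not reported here.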

Additional observations from a re-analysis of the deposited data

Results flagged for a closer look

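Among 30 named pseudogenes, 2 had 1 sufficient tumor far from the other 3 by Dixon's ratio, and chance alone marks about 1 group in 20. Gm8203, the copy of H2afz, had 1488 and 1298 RPKM in the deficient tumors, against 1858, 1430, 1914 and 1861 RPKM in the sufficient tumors, so that S2 lay below the other 3. Gm6274, a copy of Rpl7, had 24.7 and 15.1 RPKM in the deficient tumors, against 27.0, 27.0, 33.6 and 25.7 RPKM in the sufficient tumors, so that S3 lay above the other 3, as it did for most ribosomal copies.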

How the results depend on the processing

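The genotype count stayed at 1 pseudogene, Gm15459, under another pseudocount, filter, scaling, variance trend, site as a covariate or the thymic tumors alone, and at 1 of 130 with at least 10 reads in every tumor, an alternative chosen after seeing the data. Leaving out 1 tumor gave 1 to 2 calls, the added one Gm12411 without D1, with an adjusted p of 0.0232 by limma. Over 16 alternatives Gm15459 stayed past the threshold, with log2 fold changes of 4.08 to 4.75 and adjusted p-values up to 0.0365 (limma). The parents gave 0 calls throughout, and site gave 0 to 1 (Gm20691 without S2, Gm20689 without S4, both on few reads). A limit of 5 RPKM gave 277 pseudogenes, one of 20 gave 111 and the mean of both group means 170. The stricter parent search found 163 parents. The median log2 fold change of the pseudogenes ranged over -0.41 to -0.04 and was below that of all genes tested in 17 of 17 alternatives. The tumors share only a sample number, and their deviations correlated at 0.02 (D1 with S1) and 0.21 (D2 with S2) across genes. With the replicate block 1 pseudogene was called and the ribosomal median was -0.16. This block, which also gave the -0.04, sets only D1 against S1 and D2 against S2. These are thymic against neck node tumors, so genotype, site and age cannot be told apart in it. Site as a covariate and the thymic tumors alone gave the same median of -0.34. At an unadjusted limma p below 0.05, 6 pseudogenes were lower and 7 higher with the block, against 25 and 3 among the thymic tumors alone. With 2 deficient tumors, sequences nearly the same as those of the parents and lengths down to 1 base, small differences were not detectable.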

Other observations

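The parent gene of Gm15459, Hspa8, lies at chr9:40800984-40810087, and within 150000 bases on each side of it 1 gene passed the genotype test. This was Jhy (4931429I11Rik in the file), a gene known from mice for its role in ependymal cilia, 84762 bases from Hspa8 and chosen after its values were seen. Across all genes tested 0.0627% passed. The study had already reported Jhy among its most different genes, and by RT-qPCR in more tumors. Jhy had 7.06 and 17.8 RPKM in the deficient tumors, against 0.02, 0.04, 0.06 and 0.02 RPKM in the sufficient tumors. Its fold change was 3.57 on the log2 scale (SE 0.33, adjusted p = 0.0093, limma). Gm15459 was higher in D1 than in D2, and Jhy was higher in D2 than in D1.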
